A study of Mus musculus with 9 samples.

Results

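The genes described here are the 8 that encode the catenin core of the adherens junction and its main stromal partners. They are Ctnnb1 (beta-catenin), Jup (plakoglobin, also called gamma-catenin), Ctnna1 (alpha-E-catenin), Ctnnd1 (p120-catenin), Cdh2 (N-cadherin), Cdh11 (cadherin-11), Cdh13 (T-cadherin) and Vcl (vinculin). They were taken by symbol, as 8 of the 23358 entries of the gene count table, and all 8 passed the filter on low counts that left 13240 genes for testing. RNA was sequenced from 9 cultures of marrow-derived mesenchymal stem cells of adult C57BL/6 mice, at passages 4 to 10, in 3 groups of 3 libraries that the series text calls biological replicates. The siBcat cultures received an siRNA against beta-catenin. The GSK126 cultures received a non-targeting siRNA and 5 µM GSK126, an inhibitor of the histone methyltransferase Ezh2. The siCTL cultures received the non-targeting siRNA alone. All 3 groups were kept in osteogenic medium with ascorbic acid and beta-glycerophosphate and lysed on day 4 after transfection. The treatment label of the siBcat cultures also lists 5 µM GSK126, whereas their titles and source names give no inhibitor, and the groups here follow the titles. Their count columns are headed siCat-G126, with the hyphen read here as minus, while those of the GSK126 cultures are headed siCTL_plus_G126. The labels do not say whether the 3 cultures of a group came from separate animals, so p values measure the spread between these cultures. That spread was taken over all 9 cultures in a single fit, so the group outside a comparison also enters its p values.

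In an adherens junction, a classical cadherin spans the membrane and binds its like on the neighbouring cell. Its tail holds p120-catenin, which slows cadherin removal from the surface, and either beta-catenin or the related plakoglobin. Both of these bind alpha-catenin, which reaches actin and, under tension, recruits vinculin. A second pool of beta-catenin carries Wnt signals to the nucleus, and in marrow stromal cells it is known for favouring the bone over the fat lineage. N-cadherin and cadherin-11 are the classical cadherins known from osteoblast-lineage cells, and T-cadherin is anchored to the membrane by a lipid and has no tail for catenins.

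In siBcat cultures, Ctnnb1 fell to 2.23% of its control level and Jup, the other catenin that binds the same cadherin site, fell as well. Cdh11 fell, Cdh2 and Vcl rose by smaller amounts, and Ctnna1, Ctnnd1 and Cdh13 did not pass the threshold, an adjusted p under 0.05 in edgeR's quasi-likelihood test. That makes 2 higher and 3 lower genes of 8 in siBcat against siCTL, where 35.2% of all genes tested were called, 17.7% higher and 17.5% lower. The ranges of siBcat and siCTL libraries were apart for every gene of the 8 except Ctnna1 and Ctnnd1, beside 55.2% of all genes tested. In GSK126 cultures, 3 of the 8 genes (Jup, Cdh11 and Cdh13) were lower than in siCTL and 0 were higher (1 at an unadjusted p under 0.05 by edgeR, 0 by DESeq2 and by limma-voom), where 25.0% of all genes were called, 14.3% higher and 10.7% lower. The ranges of GSK126 and siCTL were apart for every gene of the 8 except Cdh2 and Vcl, beside 42.1% of all genes tested. In siBcat against GSK126, 2 genes (Cdh2 and Vcl) were higher and 3 (Ctnnb1, Jup and Cdh11) lower, where 41.2% of all genes were called, 19.3% higher and 21.9% lower; ranges were apart for every gene of the 8 except Ctnnd1 and Cdh13, beside 52.5% of all genes. The median log2 fold change of the 8 genes was -0.12 in siBcat against siCTL, -0.10 in GSK126 against siCTL and 0.09 in siBcat against GSK126, beside 0.002 (siBcat against siCTL), 0.006 (GSK126 against siCTL) and -0.012 (siBcat against GSK126) for all genes tested. Each pair of comparisons shares a group, so their values are given side by side only.

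Summed counts were 42324200 to 55898774 per library. In GSK126 replicate 3, short genes were high and long genes low: its median deviation from the group mean of log2 CPM was 0.17 in the 10% of genes with the shortest deposited length and -0.23 in the 10% with the longest, against -0.08 and -0.09 (shortest) and 0.10 and 0.13 (longest) in the other GSK126 libraries and within 0.022 of 0 in siBcat and siCTL. That library was the lowest of its group for 7 of the 8 genes, all but Jup. Of 12 stromal markers 11 were tested, and their summed level was 22000 to 24100 CPM (counts scaled to a common library total) in siBcat, 26900 to 29400 in GSK126 and 23600 to 28400 in siCTL. Against siCTL, 2 stromal markers were higher (Cd44 0.85, Ly6a 0.78) and 3 lower (Vcam1 -0.79, Pdgfra -0.29, Col1a2 -0.23, all log2) in siBcat, and 2 were higher (Vcam1 0.47, Ly6a 0.38) and 3 lower (Pdgfra -0.59, Pdgfrb -0.36, Itgb1 -0.19) in GSK126. In the same comparisons, 17.7% of all genes were higher and 17.5% lower in siBcat, and 14.3% higher and 10.7% lower in GSK126. Thy1, a surface marker of many stromal cells, had 0 counts in all 9 libraries, and Eng and Nt5e were below 10 CPM. Ptprc, Emr1 and Cd3e (blood cells), Tie1 (endothelium), Epcam and Krt14 (epithelium) and Myog, Myf5 and Cdh15 (muscle) had 0 counts in every library. Summed CPM was 10.8 to 11.7 in siBcat, 8.9 to 11.2 in GSK126 and 11.1 to 13.6 in siCTL for 9 blood cell markers. For 7 endothelial markers it was 1.66 to 2.23 in siBcat, 1.47 to 2.26 in GSK126 and 1.45 to 2.03 in siCTL, and for 8 muscle markers 55.4 to 60.2 in siBcat, 46.6 to 55.6 in GSK126 and 45.7 to 51.3 in siCTL. Called among these were Lyz2 (3.09), Cd68 (-0.67), Kdr (1.53), Vwf (-0.90) and Acta1 (2.56) in siBcat against siCTL, and Cd14 (-0.39) and Acta1 (2.10) in GSK126 against siCTL (log2), of which only Acta1 passed a mean of 10 CPM in any group. Their part in the results was not tested.

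Ctnnb1, the target of the siRNA, lies on chromosome 9 at 120933400 to 120960507 of mm10, with a length of 3623 bases in the deposited table. It had 19.33, 19.31 and 19.13 CPM in siBcat cultures, 925.4, 949.7 and 905.9 CPM in GSK126 cultures and 854.4, 860.1 and 878.9 CPM in siCTL cultures. The siBcat level was 2.23% ± 0.013 (SD, n = 3) of the siCTL mean, and it still rested on 794, 954 and 874 counts per library. All siBcat libraries were far below the others, and all GSK126 libraries lay above the siCTL range. The log2 fold change was -5.49 (SE 0.0536, adjusted p = 1.125e-15 by edgeR) in siBcat against siCTL, 44.9-fold lower, and -5.59 (SE 0.0538, adjusted p = 9.447e-16) in siBcat against GSK126. The GSK126 cultures differed from siCTL by 0.10 (SE 0.0434, adjusted p = 0.1085). Without GSK126 replicate 3 the GSK126 difference passed the threshold, at 0.11 (adjusted p = 0.007625). It also passed with scaling by library size only, at 0.135 (adjusted p = 0.04648).

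Jup lies on chromosome 11 at 100368856 to 100397790, with a deposited length of 5009 bases. The table heads this column as coding length, but the Jup coding sequence in GENCODE M21 is 2238 bases long. Plakoglobin takes the place of beta-catenin on cadherin tails and is also the catenin of desmosomes. Jup had 18.80, 16.60 and 18.51 CPM in siBcat cultures, 32.33, 28.67 and 29.53 CPM in GSK126 cultures and 43.12, 37.69 and 36.33 CPM in siCTL cultures. No range overlapped another, and the order was siBcat, GSK126, siCTL from low to high. Relative to the siCTL mean, Jup stood at 46.0% ± 3.1 in siBcat and 77.3% ± 4.9 in GSK126 (SD, n = 3 each). It fell by 1.12 on the log2 scale in siBcat against siCTL (SE 0.0817, adjusted p = 5.426e-07, edgeR), by 0.37 in GSK126 against siCTL (SE 0.0793, adjusted p = 0.004727) and by 0.75 in siBcat against GSK126 (SE 0.0816, adjusted p = 1.211e-05). Each of these calls held under all 21 alternatives. In bulk RNA, fewer cells expressing a gene and less of its RNA per cell cannot be told apart.

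The coding sequences of the siRNA target and of Jup are related, and the stretch shown here is the longest run of identical bases they share. It is 20 bases long, at positions 1000 to 1019 of the Ctnnb1 coding sequence and 973 to 992 of the Jup coding sequence (GENCODE M21, mm10, both in the sense orientation).
Ctnnb1 and Jup: gagaagcttctgtggaccac
Over aligned coding bases, Ctnnb1 and Jup were 69.6% identical. Between Ctnnb1 and the other 6 genes the longest identical run was 11 to 13 bases. Of 11489 other tested genes with a protein-coding transcript in GENCODE M21, 1 shared any 19-base word with the Ctnnb1 coding sequence, and that gene was Jup. The sources used here do not give the siRNA sequences, so whether the siRNA covers this run was not tested. Jup was lower in GSK126 than in siCTL (-0.37), both with the non-targeting siRNA, and lower in siBcat than in GSK126 (-0.75). The cause of either difference was not tested.

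Both proteins carry near their start the phosphodegron, the stretch that is phosphorylated by Gsk3 kinases and then recognised by the ubiquitin ligase subunit beta-TrCP. Its coding bases are shown to compare the paralogues, with capitals at the 18 of 42 bases that differ between them (positions 82 to 123 of the Ctnnb1 coding sequence, 55 to 96 of Jup).
Ctnnb1: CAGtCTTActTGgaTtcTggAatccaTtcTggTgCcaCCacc
Jup: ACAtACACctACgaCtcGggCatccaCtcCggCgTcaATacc
The sources used here do not say how reads that match both genes were counted.

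To set one gene beside another, CPM was divided by the deposited length in kilobases. On that scale the ratio of Jup to Ctnnb1 was 0.7033, 0.6217 and 0.7001 in siBcat cultures, 0.02527, 0.02183 and 0.02358 in GSK126 cultures and 0.0365, 0.03169 and 0.02989 in siCTL cultures. Thus Jup, a small part of the pair in siCTL, came close to Ctnnb1 in siBcat although it fell itself. Its share of the summed Ctnnb1 and Jup level was 41.29, 38.34 and 41.18% in siBcat, 2.464, 2.137 and 2.303% in GSK126 and 3.522, 3.072 and 2.903% in siCTL. The sum of both genes per kilobase was 8.643 to 9.089 CPM in siBcat, 255.9 to 267.9 in GSK126 and 244.4 to 249.9 in siCTL, so the pair as a whole was not kept up in siBcat. Because Ctnnb1 is the siRNA target, the Jup to Ctnnb1 ratio in siBcat largely restates the fall of Ctnnb1. In each comparison that ratio's ranges were apart, and the exact two-sided permutation test gave p = 0.1, the smallest that 3 against 3 libraries allow.

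**Figure D1:**
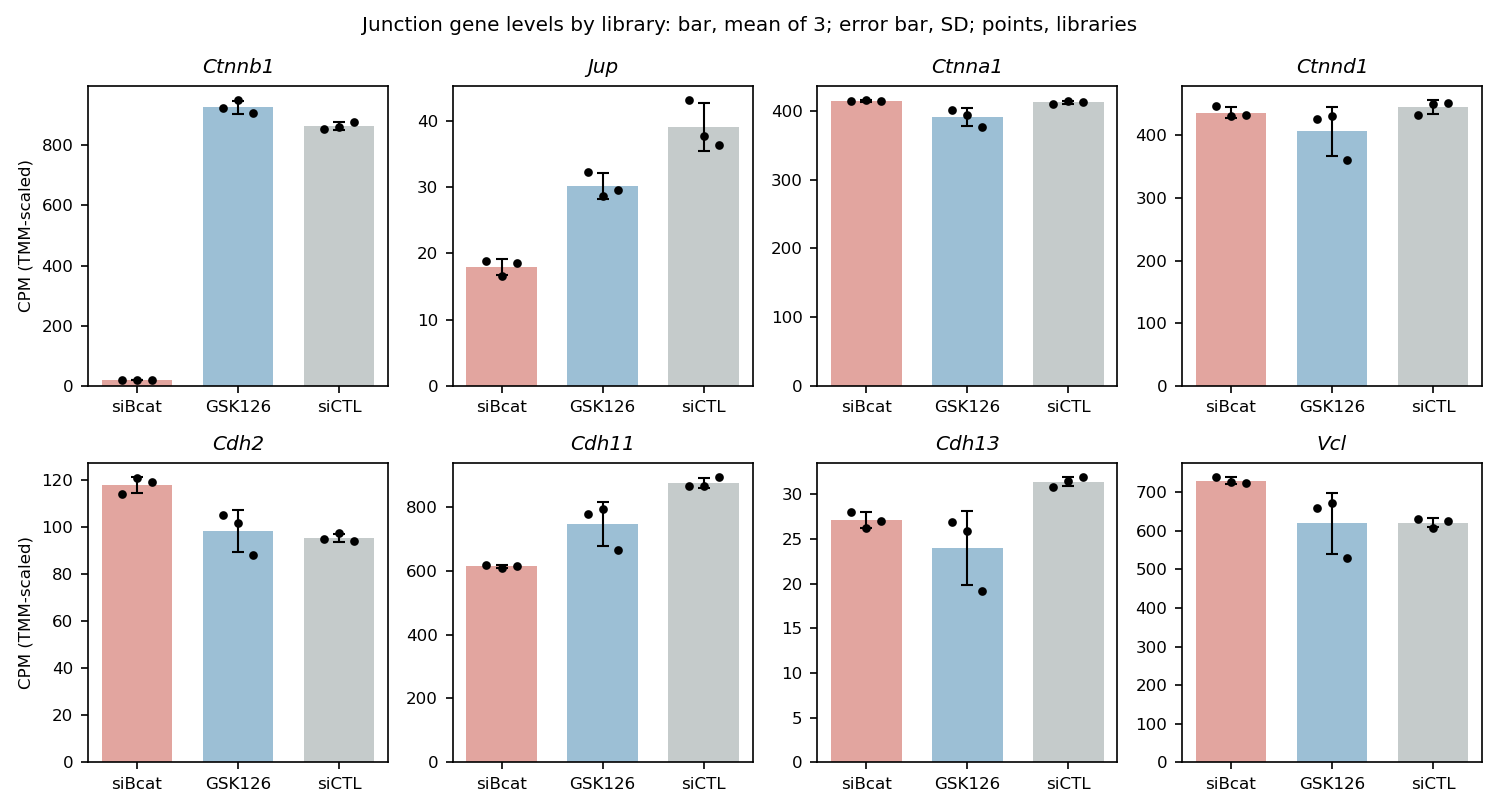
Level of each of the 8 genes in CPM after TMM scaling, in the siBcat, GSK126 and siCTL groups; points are the 3 libraries, bars the mean and error bars the SD, and each panel has its own axis from 0. Ctnnb1 is near the floor of its panel in siBcat, Jup and Cdh11 step up from siBcat through GSK126 to siCTL, and 1 GSK126 library stands low for Ctnnd1, Cdh2, Cdh11, Cdh13 and Vcl.

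Ctnna1 and Ctnnd1, the catenins that do not compete for the beta-catenin site, showed no call in any comparison. Ctnna1 (chromosome 18, 35118912 to 35254775) had 413.8, 415.5 and 413.9 CPM in siBcat cultures, 402.0, 394.6 and 376.8 CPM in GSK126 cultures and 410.0, 414.2 and 413.2 CPM in siCTL cultures. The siBcat and siCTL ranges overlapped, and the log2 fold change of 0.0066 had a 95% Wald interval of -0.0804 to 0.0936 (adjusted p = 0.926, edgeR). The value for GSK126 against siCTL was -0.08 (interval -0.164 to 0.0104, adjusted p = 0.2284), with all GSK126 libraries below the siCTL range. Lrrtm2, which GENCODE M21 places inside Ctnna1 on the other strand, was at 0.0905 to 0.584 CPM in all libraries.

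Ctnnd1 (chromosome 2, 84600781 to 84650740) had 446.0, 429.8 and 431.6 CPM in siBcat cultures, 426.2, 431.0 and 360.7 CPM in GSK126 cultures and 431.5, 450.4 and 451.3 CPM in siCTL cultures. The siBcat range overlapped both others, and all GSK126 libraries were below the siCTL range, the nearest at 431.0 CPM against 431.5 CPM. The log2 fold change was -0.03 in siBcat against siCTL (interval -0.154 to 0.0973, adjusted p = 0.767, edgeR) and -0.13 in GSK126 against siCTL (interval -0.256 to -0.00506, adjusted p = 0.1547). With the trend on deposited length removed from each library, both genes passed the threshold in the comparisons with GSK126: Ctnna1 at -0.10 (adjusted p = 0.03353) and Ctnnd1 at -0.11 (adjusted p = 0.03227) against siCTL, and at 0.15 each in siBcat against GSK126 (adjusted p = 0.00187 for Ctnna1 and 0.002297 for Ctnnd1).

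Of the cadherins, Cdh11 fell and Cdh2 rose in siBcat cultures. Cdh11 (chromosome 8, 102632995 to 102785111) encodes cadherin-11, also called OB-cadherin after osteoblasts. It had 618.3, 609.4 and 614.1 CPM in siBcat cultures, 778.0, 791.6 and 666.1 CPM in GSK126 cultures and 863.7, 865.9 and 893.7 CPM in siCTL cultures. All 3 groups were apart, in the same order as for Jup. Cdh11 stood at 70.2% ± 0.51 of the siCTL mean in siBcat and 85.2% ± 7.9 in GSK126 (SD, n = 3 each). Its log2 fold change was -0.51 in siBcat against siCTL (SE 0.0614, adjusted p = 3.813e-05, edgeR), -0.23 in GSK126 against siCTL (SE 0.0613, adjusted p = 0.01572) and -0.28 in siBcat against GSK126 (SE 0.0613, adjusted p = 0.002792). The GSK126 call was lost without siCTL replicate 3 (-0.22, adjusted p = 0.05571).

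Cdh2 (chromosome 18, 16588877 to 16809049) moved the other way. It had 114.3, 120.9 and 119.2 CPM in siBcat cultures, 105.2, 101.8 and 88.2 CPM in GSK126 cultures and 94.97, 97.45 and 94.13 CPM in siCTL cultures. The siBcat libraries lay above all others, while the GSK126 and siCTL ranges overlapped. Cdh2 was 1.24-fold higher in siBcat, 0.31 on the log2 scale against siCTL (SE 0.0639, adjusted p = 0.002476, edgeR) and 1.20-fold higher in siBcat than in GSK126 (0.26, SE 0.0638, adjusted p = 0.005155). Between GSK126 and siCTL the log2 fold change was 0.04 (interval -0.0825 to 0.168, adjusted p = 0.6605). Without GSK126 replicate 3 it was 0.11 and passed the threshold (adjusted p = 0.0397).

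Cdh13 (chromosome 8, 118283755 to 119323448), the cadherin without a catenin-binding tail, had 28.05, 26.23 and 26.96 CPM in siBcat cultures, 26.85, 25.91 and 19.21 CPM in GSK126 cultures and 30.81, 31.51 and 31.87 CPM in siCTL cultures. Every siCTL library was above every siBcat and GSK126 library, and the siBcat and GSK126 ranges overlapped. It fell by 0.39 on the log2 scale in GSK126 against siCTL (SE 0.1014, adjusted p = 0.0145, edgeR), a call lost without siCTL replicate 3 (-0.38, adjusted p = 0.05112). In siBcat against siCTL its log2 fold change of -0.21 did not pass (SE 0.1012, adjusted p = 0.1211). It passed without GSK126 replicate 3 (-0.22, adjusted p = 0.002138), and with only the siBcat and siCTL groups in the fit (-0.22, adjusted p = 0.002527).

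These changes altered the make-up of the 3 cadherins. Per kilobase, Cdh2 made up 13.41, 14.29 and 14.01% of their sum in siBcat cultures, 10.34, 9.911 and 10.24% in GSK126 cultures and 8.562, 8.735 and 8.231% in siCTL cultures. All 3 groups were apart, with the share 5.395 percentage points higher in siBcat than in siCTL, 1.656 higher in GSK126 than in siCTL and 3.739 higher in siBcat than in GSK126. Cdh11 remained the main part, with 79.42 to 79.92% in siBcat, 84.3 to 85.24% in GSK126 and 85.53 to 86.11% in siCTL. The summed cadherin level was 182.0 to 183.5 CPM per kilobase in siBcat, 185.4 to 221.0 in GSK126 and 238.8 to 246.1 in siCTL. The ratio of Ctnnb1 plus Jup to the 3 cadherins was 0.04953, 0.04748 and 0.04902 in siBcat, 1.196, 1.212 and 1.381 in GSK126 and 1.024, 1.02 and 1.015 in siCTL. In siBcat the Ctnnb1 and Jup level was thus far below that of the cadherins, and in siCTL it was about the same. Ctnnb1, the siRNA target, was most of the pair in siCTL, so this ratio in siBcat largely restates its knockdown. Over the 9 comparisons of these shares and ratios, each exact permutation p was 0.1, also after Benjamini-Hochberg adjustment, so none could pass the threshold in this design.

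**Figure D2:**
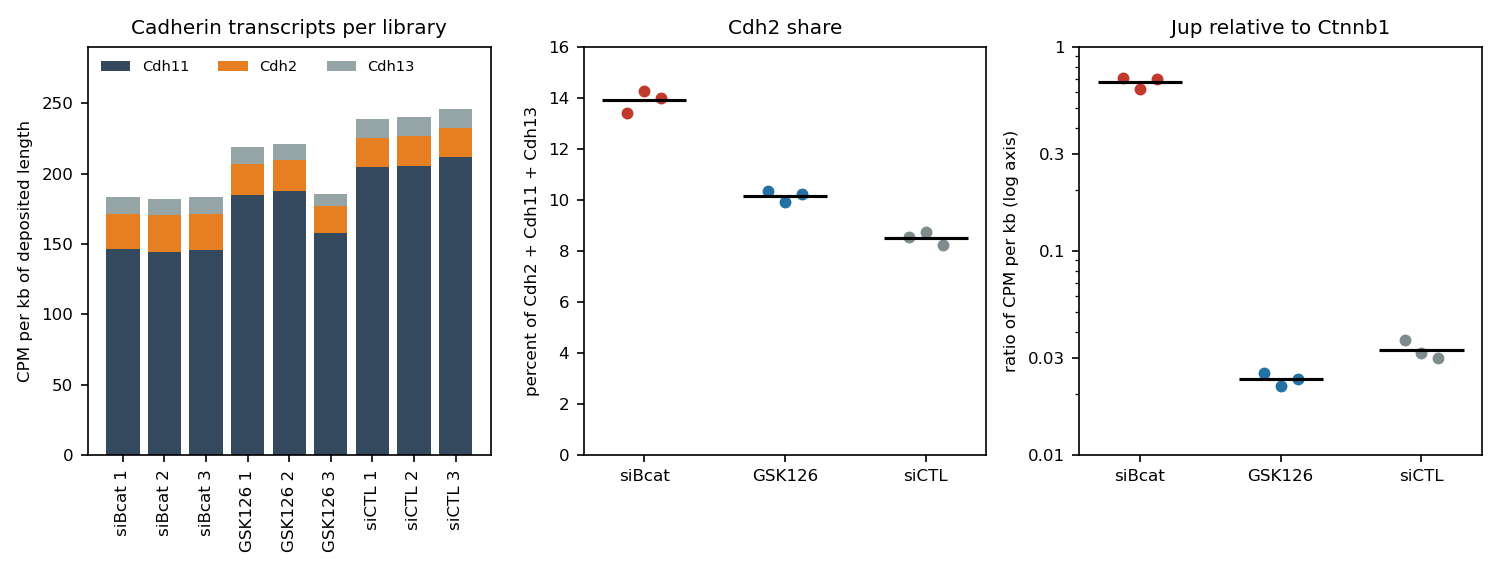
Left, level of Cdh11, Cdh2 and Cdh13 stacked as bars for each library, in CPM per kilobase of deposited length; middle, share of Cdh2 in that sum in percent; right, ratio of Jup to Ctnnb1 per kilobase on a log axis. In the middle and right panels points are libraries and lines group means; the Cdh2 share is 13.41 to 14.29% in siBcat, 9.911 to 10.34% in GSK126 and 8.231 to 8.735% in siCTL.

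Vcl (chromosome 14, 20929433 to 21033673) encodes vinculin, which reinforces both cadherin junctions and integrin adhesions. It had 739.4, 724.6 and 722.7 CPM in siBcat cultures, 657.3, 671.2 and 528.8 CPM in GSK126 cultures and 629.3, 606.9 and 625.0 CPM in siCTL cultures. The siBcat libraries were above all others, and the GSK126 range spanned the siCTL range. Vcl was 1.17-fold higher in siBcat, 0.23 on the log2 scale against siCTL (SE 0.0746, adjusted p = 0.02805, edgeR) and 1.18-fold higher in siBcat than in GSK126 (0.24, SE 0.0746, adjusted p = 0.02293). Against siCTL the call was lost when any siBcat or siCTL library was left out (adjusted p = 0.06714 to 0.1204, log2 fold change 0.20 to 0.24), and against GSK126 when any siBcat library was left out (adjusted p = 0.05902 to 0.07701). Against GSK126 it was also lost with scaling by library size only (adjusted p = 0.06184). Over all 21 alternatives, by edgeR, DESeq2 or limma-voom, the siBcat against siCTL value ran from 0.20 to 0.30 (adjusted p = 5.642e-07 to 0.1204). The siBcat against GSK126 value ran from 0.14 to 0.30 (adjusted p = 9.403e-06 to 0.07701). Between GSK126 and siCTL the log2 fold change was -0.0032 (interval -0.149 to 0.143, adjusted p = 0.9802), and without GSK126 replicate 3 it was 0.10 (adjusted p = 0.02475). Relative to Ctnna1, its partner at the junction, Vcl per kilobase stood at 1.226 to 1.256 in siBcat, 0.9865 to 1.196 in GSK126 and 1.03 to 1.079 in siCTL. The same ratio of Ctnnd1 to Ctnna1 overlapped between siBcat and siCTL, with 0.6946 to 0.7237 in siBcat, 0.6427 to 0.7333 in GSK126 and 0.7066 to 0.7333 in siCTL. Ap3m1, the neighbour at the 3' end of Vcl, was at 73.1 to 94.8 CPM over all libraries.

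Promoter windows of 250 bases before a transcription start were at hand for 4 of the 8 genes (RefSeq, GRCm38.p6). They are shown for Vcl, which rose in siBcat, and Jup, which fell. Each was searched on both strands for the CArG box, bound by the actin-responsive serum response factor, the TCF/LEF core CTTTGA, through which beta-catenin reaches DNA, and the E-box CAGGTG. The Vcl window, at chr14:20929148-20929397 on the plus strand, holds 1 CArG box starting at base -227, in capitals.
Vcl: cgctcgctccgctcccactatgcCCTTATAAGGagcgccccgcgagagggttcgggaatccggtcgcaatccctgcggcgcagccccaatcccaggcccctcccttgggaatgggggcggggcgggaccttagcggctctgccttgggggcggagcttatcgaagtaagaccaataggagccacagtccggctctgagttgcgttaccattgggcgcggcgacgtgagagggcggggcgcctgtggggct
The Jup window, at chr11:100397791-100398040 on the minus strand, holds none of the 3 motifs.
Jup: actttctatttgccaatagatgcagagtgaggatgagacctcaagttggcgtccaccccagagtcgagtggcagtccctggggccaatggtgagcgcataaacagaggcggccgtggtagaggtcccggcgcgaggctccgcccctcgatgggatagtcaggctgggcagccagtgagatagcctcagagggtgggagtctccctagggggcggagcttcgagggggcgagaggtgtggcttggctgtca
Of 32851 such windows of mouse genes, 1.47% hold a CArG box, 13.8% the CTTTGA core and 17.2% the CAGGTG box. A match describes these letters, and none was tested as a binding site here.

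**Figure D3:**
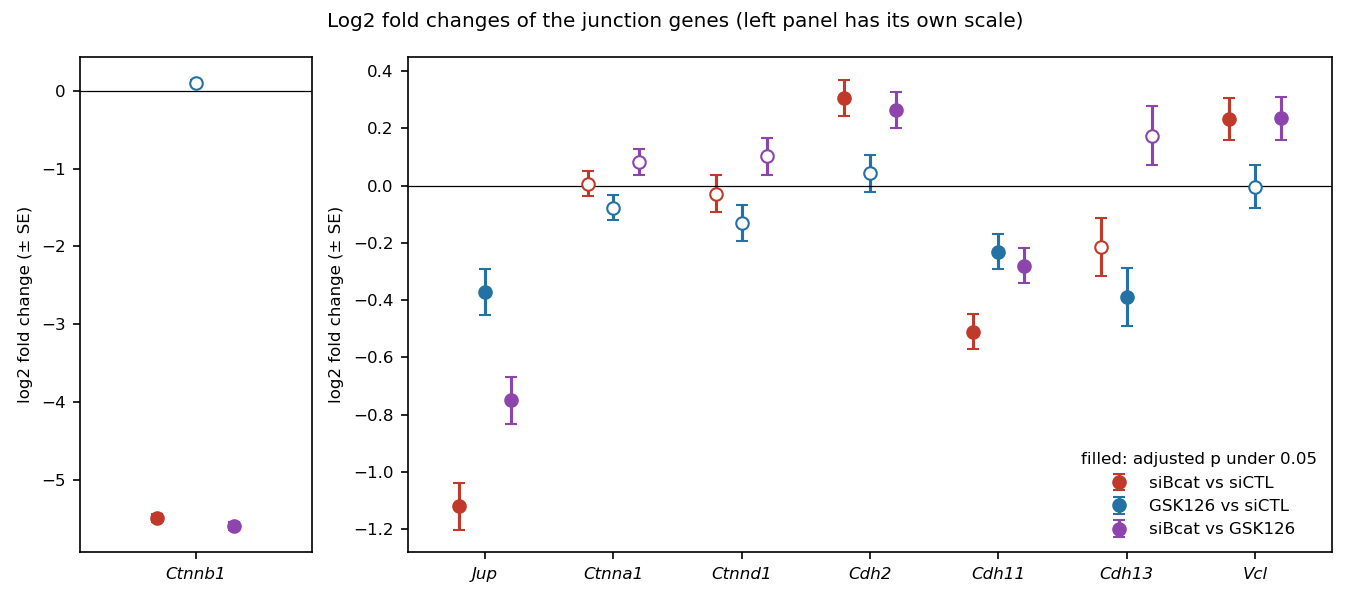
Log2 fold change with its SE for each gene in siBcat against siCTL, GSK126 against siCTL and siBcat against GSK126; filled points passed an adjusted p of 0.05, and Ctnnb1 has a panel and scale of its own. Apart from Ctnnb1 at -5.49 and -5.59, the values lie between -1.12 (Jup in siBcat against siCTL) and 0.31 (Cdh2 in siBcat against siCTL).

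The count of called genes in GSK126 against siCTL depended on single libraries. It was 6 of 8 (3 higher and 3 lower) without GSK126 replicate 3, beside 28.7% of all genes tested in the same setting. Without siCTL replicate 3 it was 1 of 8 (Jup), beside 17.7% of all genes, and with the length trend removed 5 of 8, beside 32.6%. With all libraries it was 3 of 8, beside 25.0%. Jup was lower under all 21 alternatives, with adjusted p from 0.0002486 to 0.02408.

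Ranked by CPM per kilobase, siBcat cultures led with Cdh11 (145.6 ± 1.05), Vcl (139.4 ± 1.75), Ctnna1 (112.7 ± 0.256) and Ctnnd1 (79.6 ± 1.62), and then came Cdh2 (25.43 ± 0.736), Cdh13 (11.83 ± 0.4), Ctnnb1 (5.315 ± 0.0314) and Jup (3.587 ± 0.239), with no overlap between neighbours (SD, n = 3). In siBcat, Ctnnb1 thus dropped to a percentile of 40.5 among all genes tested, against 98.3 in siCTL, yet stayed above Jup, at 33.7 in siBcat and 48.2 in siCTL. In GSK126 the order was Ctnnb1 (255.9 ± 6.06), Cdh11 (176.8 ± 16.3), Vcl (118.4 ± 15), Ctnna1 (106.4 ± 3.52), Ctnnd1 (74.15 ± 7.17), Cdh2 (21.18 ± 1.94), Cdh13 (10.48 ± 1.82) and Jup (6.024 ± 0.382). Among GSK126 neighbours, Vcl and Ctnna1 overlapped and the others did not. The siCTL order was the same as in GSK126, with Ctnnb1 at 238.6 ± 3.54, Cdh11 at 207.4 ± 3.96, Vcl at 118.6 ± 2.27, Ctnna1 at 112.2 ± 0.596, Ctnnd1 at 81.17 ± 2.04, Cdh2 at 20.56 ± 0.372, Cdh13 at 13.71 ± 0.235 and Jup at 7.795 ± 0.718, all apart. Cdh11 was the main cadherin in every group.

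Other catenin-related genes were few at a level that could be tested. Of 10 listed genes, 6 were tested, and in siBcat against siCTL 0 were higher and 2 lower, beside 17.7% higher and 17.5% lower of all genes. The median log2 fold change of the list was 0.068. Ctnnal1 (alpha-catulin, a relative of alpha-catenin) averaged 37.36 CPM in siBcat, 53.64 in GSK126 and 89.99 in siCTL. It fell by 1.27 in siBcat against siCTL on the log2 scale (SE 0.0602, adjusted p = 1.34e-08, edgeR) and by 0.75 in GSK126 against siCTL (SE 0.0592, adjusted p = 2.601e-06). Ctnnbip1, an inhibitor that keeps beta-catenin from TCF factors, averaged 26.99 CPM in siBcat, 45.32 in GSK126 and 38.47 in siCTL, which is lower in siBcat (-0.51, adjusted p = 4.333e-05) and higher in GSK126 (0.24, adjusted p = 0.014). In GSK126 against siCTL, 3 of these genes were higher and 1 lower (median 0.216), beside 14.3% higher and 10.7% lower of all genes. The plakophilins Pkp4 (0.19, adjusted p = 0.01785) and Pkp2 (0.28, adjusted p = 0.01856) were among the higher ones. All 3 of those higher calls were lost without siCTL replicate 3 (adjusted p = 0.06111 for Ctnnbip1, 0.07895 for Pkp2 and 0.05201 for Pkp4) and with only the GSK126 and siCTL groups in the fit. Those of Pkp2 and Pkp4 were also lost without GSK126 replicate 2 (adjusted p = 0.06582 for Pkp2 and 0.06938 for Pkp4), those of Ctnnbip1 and Pkp4 without siCTL replicate 2 (adjusted p = 0.05905 for Ctnnbip1 and 0.07015 for Pkp4), and that of Pkp4 without siCTL replicate 1 (adjusted p = 0.06488). In siBcat against GSK126, Ctnnbip1 (-0.75) and Ctnnal1 (-0.52) were lower and 0 were higher, beside 21.9% lower and 19.3% higher of all genes. Without GSK126 replicate 3, 4 were lower, beside 24.3% of all genes. Both counts of 0 higher genes were also 0 at an unadjusted p under 0.05 and by DESeq2 and limma-voom.

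Most other cadherins listed here were too low to test. Of 19 other Cdh genes, a list of classical and 7D cadherins and Cdh26 without protocadherins, 5 were tested, and Cdh1 (E-cadherin) was at or below 0.106 CPM on average in each group. Cdh24 averaged 1.493 CPM in siBcat, 3.081 in GSK126 and 2.523 in siCTL and was the only one called, lower in siBcat against siCTL (-0.77, SE 0.196, adjusted p = 0.008755, edgeR) and against GSK126 (-1.05, adjusted p = 0.0007585); 0 were called in GSK126 against siCTL. Of 13 desmosome genes, the other home of plakoglobin, 4 were tested, all with a mean near or below 2 CPM. Ppl (periplakin, which ties desmosomes to keratins) averaged 0.4982 CPM in siBcat, 1.961 in GSK126 and 2.166 in siCTL and fell in siBcat against siCTL by 2.11 on the log2 scale (SE 0.2167, adjusted p = 9.779e-06), as the 1 gene of the list called there. It also fell by 1.96 in siBcat against GSK126, as did Perp by 2.41, a tetraspan protein of desmosomes with averages of 0.09664 CPM in siBcat and 0.5473 CPM in GSK126; 0 desmosome genes were called in GSK126 against siCTL. Beside these counts, 35.2% of all genes tested were called in siBcat against siCTL, 25.0% in GSK126 against siCTL and 41.2% in siBcat against GSK126. With halved counts, or a filter of at least 1 CPM in 3 libraries, 1 desmosome gene was called in siBcat against GSK126. In GSK126 against siCTL, DESeq2 and limma-voom also called 0 genes of either list. At an unadjusted p under 0.05 by edgeR, 1 desmosome gene and 0 other cadherins were counted there. In that comparison 1 desmosome gene was called without siBcat replicate 1, with only the GSK126 and siCTL groups in the fit, or with the length trend removed. The median log2 fold changes were -0.04 (other cadherins) and -1.087 (desmosome) in siBcat against siCTL. They were 0.288 (other cadherins) and 0.092 (desmosome) in GSK126 against siCTL. The epithelial markers Cldn1 and Krt18, in a list with Epcam and Krt14 at 0, were also lower in siBcat against siCTL (-1.44 for Cldn1 and -1.96 for Krt18): summed over 8 epithelial genes, the level was 0.971 to 2.05 CPM in siBcat, 7.18 to 8.34 in GSK126 and 4.21 to 4.89 in siCTL, mostly from Cldn1 (1.4 CPM in siBcat, 7.28 in GSK126 and 3.776 in siCTL). Against siCTL, GSK126 had Cldn1 higher (0.95) and Krt18 lower (-1.50, adjusted p = 0.04499 by edgeR). Krt18 had 92 counts over all libraries, and DESeq2 and limma-voom called 0 epithelial markers lower there. The part of such cells in these values was not tested.

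Nectins and their relatives, immunoglobulin-like adhesion molecules of the same junctions, included 4 genes that were higher in siBcat. Of 11 genes 9 were tested, and 4 were higher and 1 lower in siBcat against siCTL (median log2 fold change 0.246). Of all genes tested, 17.7% were higher and 17.5% lower there. Pvr (nectin-like 5) averaged 36.28 CPM in siBcat, 22.03 in GSK126 and 23.36 in siCTL, higher in siBcat than in siCTL by 0.63 (SE 0.0573, adjusted p = 3.183e-06, edgeR). The nectins Pvrl1 (0.31, adjusted p = 0.003707), Pvrl2 (0.31, adjusted p = 0.006669) and Pvrl3 (0.25, adjusted p = 0.01232) were higher too, while Mllt4 (afadin, which ties nectins to actin) was lower (-0.31, adjusted p = 0.006206). The Pvrl3 call was lost without siBcat replicate 3 (adjusted p = 0.05608) or siCTL replicate 1 (adjusted p = 0.0524). In GSK126 against siCTL, 0 were lower by edgeR, DESeq2 or limma-voom, with 2 lower at an unadjusted p under 0.05 (median 0.083). By edgeR, 10.7% of all genes were lower there. In siBcat against GSK126 these 4 nectin genes were higher, with log2 fold changes of 0.72 (Pvr), 0.48 (Pvrl1), 0.25 (Pvrl3) and 0.23 (Pvrl2), and Cadm4 was lower (-1.20). Of all genes tested, 19.3% were higher and 21.9% lower in that comparison. The Pvrl2 call there was lost when any siBcat library, GSK126 replicate 1 or GSK126 replicate 2 was left out (adjusted p = 0.06953 to 0.09513). It was also lost with scaling by library size only (adjusted p = 0.1291) and with upper quartile scaling (adjusted p = 0.05661).

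Among actin linkers, Ezr and Msn, which link the membrane to actin as ERM proteins, moved in opposite directions in siBcat against siCTL. Of 23 genes 22 were tested, with 3 higher and 5 lower in siBcat against siCTL and 3 higher and 3 lower in GSK126 against siCTL (median log2 fold change 0.004 in siBcat against siCTL and -0.058 in GSK126 against siCTL). Among all genes, 14.3% were higher and 10.7% lower in GSK126 against siCTL. Ezr (ezrin) averaged 39.5 CPM in siBcat, 100.0 in GSK126 and 67.07 in siCTL. It fell by 0.76 in siBcat against siCTL (SE 0.0583, adjusted p = 7.583e-07, edgeR) and was higher by 0.58 in GSK126 against siCTL (SE 0.0573, adjusted p = 1.505e-05). Its relative Msn (moesin) averaged 1206 CPM in siBcat, 813.9 in GSK126 and 911.2 in siCTL, higher in siBcat against siCTL by 0.40 (SE 0.0658, adjusted p = 0.0004238); in GSK126 against siCTL it did not pass (-0.16, adjusted p = 0.08778). The third ERM gene, Rdx (radixin), passed in neither (0.04 in siBcat, adjusted p = 0.7191; -0.0014 in GSK126, adjusted p = 0.9893). Shroom3 and Evl, which shape actin at junctions, followed Ezr: Shroom3 was at -0.74 in siBcat and 1.58 in GSK126, and Evl at -0.32 in siBcat and 0.38 in GSK126, each against siCTL. Lima1, a link from alpha-catenin to actin, was lower in both (-0.21 in siBcat, -0.27 in GSK126), Vasp (-0.22) in siBcat, and Tes (-0.27) and Actn1 (-0.21) in GSK126. Parva (0.17) and Pxn (0.21), of integrin adhesions, were higher in siBcat. In siBcat against siCTL, the call of Lima1 was lost without siBcat replicate 2, siBcat replicate 3 or siCTL replicate 1 (adjusted p = 0.06146 to 0.07318), that of Parva without siBcat replicate 1, siBcat replicate 3, siCTL replicate 1 or siCTL replicate 2 (0.08887 to 0.1165), and that of Pxn without siBcat replicate 1, siBcat replicate 2, siCTL replicate 2 or siCTL replicate 3 (0.09566 to 0.1702). With scaling by library size only, Parva (adjusted p = 0.05442) and Pxn (0.06101) also lost their calls, as did Pxn with no filter (0.05098). The count of 8 in siBcat against siCTL, beside 35.2% of all genes, became 14 without GSK126 replicate 3, where 47.2% of all genes were called. It became 5 without siBcat replicate 1 (27.5% of all genes), siBcat replicate 3 (27.1%) or siCTL replicate 1 (29.1%). With the length trend removed it became 13 (42.1%). In that setting the count was 10 in GSK126 against siCTL (32.6%) and 16 in siBcat against GSK126 (50.1%). In siBcat against GSK126, 6 were higher, led by Msn (0.57), Actn1 (0.32), Tes (0.28) and Parva (0.24), and 4 lower, Shroom3 (-2.33), Ezr (-1.34), Actn3 (-0.74) and Evl (-0.69). Of all genes tested, 19.3% were higher and 21.9% lower in that comparison.

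**Figure D4:**
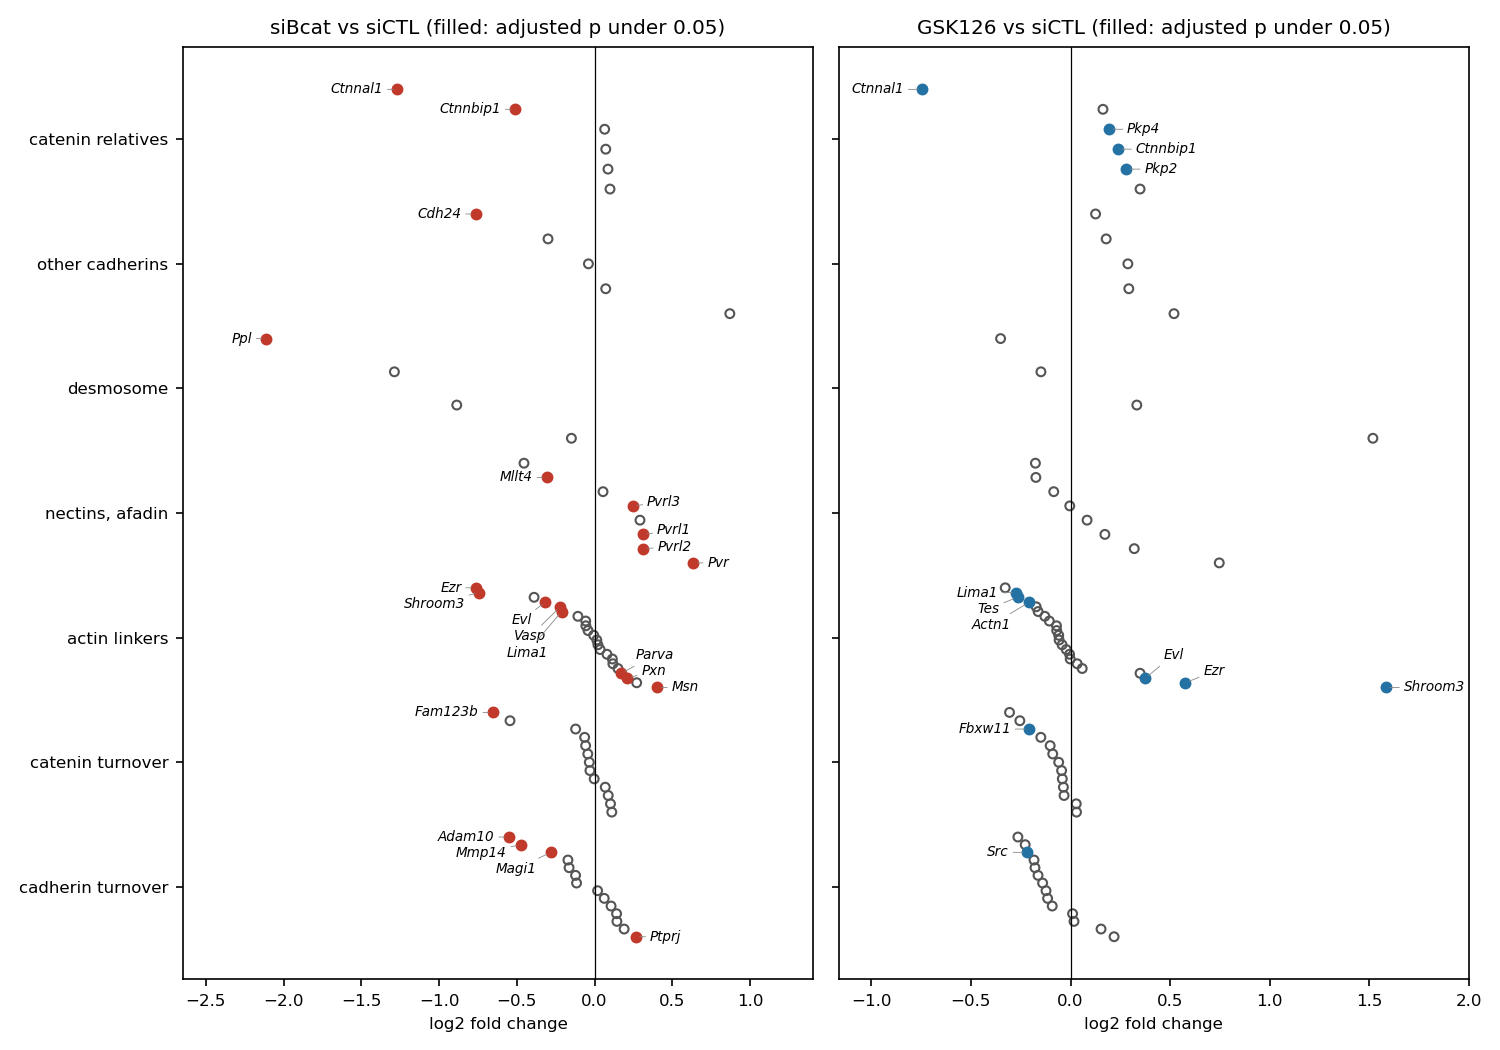
Log2 fold change of tested genes from 7 junction lists in siBcat against siCTL (left) and GSK126 against siCTL (right), with separate horizontal scales; filled and named points passed an adjusted p of 0.05, and height within a list only orders the genes. Ctnnal1 is low in both panels, while Ezr, Evl and Shroom3 lie left of 0 for siBcat and right of 0 for GSK126.

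Of the machinery that destroys beta-catenin, 13 of 14 listed genes were tested, and those called were 1 in siBcat against siCTL, 1 in GSK126 against siCTL and 3 in siBcat against GSK126, beside 35.2%, 25.0% and 41.2% of all genes in these comparisons. In detail, 0 were higher and 1 lower in siBcat against siCTL, Fam123b (Amer1, a scaffold that brings Apc to the membrane; -0.65, SE 0.1552, adjusted p = 0.008327, edgeR). With GSK126, 0 were higher than in siCTL and 1 lower, Fbxw11, which encodes a beta-TrCP protein (-0.21, adjusted p = 0.009654). In siBcat against GSK126, Gsk3b (0.24), Fbxw11 (0.17) and Csnk1a1 (0.16) were higher and 0 were lower. Csnk1a1 lost that call without siBcat replicate 1 (adjusted p = 0.07469), and Fbxw11 without siBcat replicate 1 (0.06111) or siBcat replicate 3 (0.05684). Both calls were also lost with scaling by library size only (adjusted p = 0.1464 for Csnk1a1 and 0.1029 for Fbxw11). At an unadjusted p under 0.05, 1 gene was higher in siBcat against siCTL and 0 in GSK126 against siCTL, with 0 by DESeq2 and limma-voom in both; 1 was lower in siBcat against GSK126, which DESeq2 called and limma-voom did not. The medians were -0.034 in siBcat against siCTL, -0.059 in GSK126 against siCTL and 0.032 in siBcat against GSK126. Without GSK126 replicate 3 the counts were 4 in siBcat against siCTL (beside 47.2% of all genes), 2 in GSK126 against siCTL (28.7%) and 6 in siBcat against GSK126 (47.2%). The GSK126 against siCTL count was also 2 without GSK126 replicate 2 (24.6%). Without siBcat replicate 1 the count in siBcat against GSK126 was 1 (33.4%). With the length trend removed the counts were 2 in siBcat against siCTL (42.1%), 3 in GSK126 against siCTL (32.6%) and 7 in siBcat against GSK126 (50.1%). With only the siBcat and siCTL groups in the fit, 3 were called (47.0%).

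Genes that cut or turn over cadherins included 2 proteases that were lower in siBcat. All 14 of this list were tested, with 1 higher and 3 lower in siBcat against siCTL (median -0.048), beside 17.7% higher and 17.5% lower of all genes. Adam10, which sheds the N-cadherin ectodomain, averaged 135.3 CPM in siBcat, 199.9 in GSK126 and 198.4 in siCTL and fell by 0.55 in siBcat against siCTL (SE 0.0748, adjusted p = 0.0001014, edgeR). Mmp14, a membrane metalloproteinase, averaged 865.4 CPM in siBcat, 1129 in GSK126 and 1204 in siCTL and fell by 0.48 (SE 0.0512, adjusted p = 1.501e-05). The junction scaffold Magi1 was also lower (-0.28, adjusted p = 0.006349), a call lost with the length trend removed (adjusted p = 0.09595). The receptor phosphatase Ptprj was higher (0.26, adjusted p = 0.01318). That call was lost without siBcat replicate 2, siBcat replicate 3 or siCTL replicate 1 (adjusted p = 0.0578 to 0.07236). In GSK126 against siCTL 0 were higher (1 at an unadjusted p under 0.05 by edgeR, 0 by DESeq2 and limma-voom) and 1 lower, the kinase Src (-0.22, adjusted p = 0.008961; median of the list -0.132), and in siBcat against GSK126 4 were higher, Src (0.36), Ptprj (0.43), Fyn (0.28) and Ptpn1 (0.26), and 3 lower, Adam10 (-0.56), Mmp14 (-0.38) and Magi1 (-0.30). Of all genes tested, 25.0% were called in GSK126 against siCTL and 41.2% in siBcat against GSK126. The count of this list in siBcat against siCTL was 9 without GSK126 replicate 3, beside 47.2% of all genes. In GSK126 against siCTL the count was 10 with the length trend removed (32.6% of all genes) and 4 without GSK126 replicate 3 (28.7%). It was 3 without GSK126 replicate 2 (24.6%) or siCTL replicate 3 (17.7%), and 2 without GSK126 replicate 1 (21.6%).

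For each of the 8 genes, the 3 genes most alike in log2 CPM over the 9 libraries were found among 10236 genes whose mean reached 2 CPM. These correlations describe 9 libraries in 3 groups and carry no test. Ctnnb1 was matched by Spcs3 (Pearson r = 0.9993; 109.7 CPM in siBcat, 278.8 in GSK126 and 272.8 in siCTL), Sumf1 (0.9986) and Spn (0.9978). Their log2 fold changes in siBcat against siCTL were -1.31 (Spcs3), -0.62 (Sumf1) and -0.67 (Spn), far smaller than that of Ctnnb1. Jup was matched by Rab36 (0.9891), Wnt5b (0.9876), a Wnt ligand with 1.955 CPM in siBcat, 7.339 in GSK126 and 13.01 in siCTL, and Nt5dc2 (0.9861). Cdh11 was matched by Mme (0.9975), which encodes the surface peptidase neprilysin and averaged 94.45 CPM in siBcat, 146.0 in GSK126 and 203.0 in siCTL, by Svil (0.9969) and by Fam38b (0.9964). Cdh2 was matched by Ints7 (0.9834), Unc5c (0.9819), a netrin receptor with 17.83 CPM in siBcat, 10.94 in GSK126 and 10.14 in siCTL, and Homer1 (0.9788). Cdh13 was matched by Sh3pxd2b (0.9912), Sytl5 (0.9907) and Ylpm1 (0.99), and Vcl by Xpo5 (0.9793), Tbl1xr1 (0.978) and Arl13b (0.9779). For Ctnna1 (Ppp2r5e 0.9899, Rb1cc1 0.9865, Secisbp2l 0.9862) and Ctnnd1 (Kdm3b 0.9923, Ubap2l 0.9909, Grlf1 0.9902) the matched genes likewise had their lowest mean in GSK126. Ctnna1 (376.8 CPM) and Ctnnd1 (360.7 CPM) were lowest in GSK126 replicate 3, the library with the length trend, as were Cdh2, Cdh13 and Vcl. The part of that library in these matches was not tested.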

How the data were processed

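The 8 genes and the gene lists were chosen with earlier results of these data known. The submitters' processing notes name TopHat2 2.0.6, HTSeq, bcl2fastq and the mm10 build; the sources used here give no annotation, strand handling or order. The authors deposited whole-number counts per gene and library, RPKM (used for 1 alternative) and, per the file headers, a coding length in bases, called deposited length here because it exceeds the coding sequence of Jup. All counts were even, and 1 alternative used halved counts. Another 6 per-sample columns were not used. Groups followed the titles. In R 4.3.3, edgeR 4.0.16 tested all genes (filterByExpr, minimum count 10 and total 15; TMM; robust quasi-likelihood fit over 9 libraries; 6 residual degrees of freedom; common biological coefficient of variation 8.12%), with Benjamini-Hochberg adjustment over 13240 genes. Levels are TMM-scaled CPM; SD covers n = 3 libraries. Shares and ratios were tested by exact permutation. Alternatives included DESeq2 1.42.0 and limma 3.58.1 (voom). Figures and sums used matplotlib 3.10.9, scipy 1.17.1, numpy 2.4.6 and pandas 2.3.3 in Python 3.11.15. The fit was tested on simulated counts. Named beyond the 8 genes were, per list, direction and comparison, up to 4 called genes with the smallest adjusted p, the 3 genes most alike to each, and markers; Vasp and Rdx, outside this rule, were chosen after their values were seen. Older symbols were matched through RefSeq synonyms, and coding sequences came from GENCODE M21. Some genes of the lists are not reported here.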

Additional observations from a re-analysis of the deposited data

How the results depend on the processing

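Of 504 values of the 8 genes under alternatives, 471 kept direction and side of the threshold. With the direction kept, 12 lost the call and 9 gained one. Another 12 changed sign, 0 of these 12 in a value called with TMM and all libraries. Among the sign changes, Vcl in GSK126 against siCTL also gained a call without GSK126 replicate 3 (adjusted p = 0.02475 by edgeR). Ctnna1 in siBcat against siCTL became -0.0281 with library size only, -0.0051 with no filter, -0.0012 with only both groups, and -0.0031 to 0.0082 with 1 library left out, below 0 without siBcat replicate 1 and without siCTL replicate 2. Ctnnd1 there became 0.0421 with the length trend removed. In GSK126 against siCTL, Cdh2 ran from -0.0142 (without GSK126 replicate 1) to 0.1136 (without GSK126 replicate 3), and Vcl became 0.0138 with the length trend removed, 0.0291 with library size only and 0.0098 with upper quartile scaling, and ran from -0.0699 (without GSK126 replicate 2) to 0.0962 (without GSK126 replicate 3), also above 0 without siCTL replicate 1. Of the 8 genes, 3 were called in GSK126 against siCTL, 5 with the length trend removed and 1 to 6 with 1 library left out; the cause was not tested. Genes called numbered 4666 (3613 to 6320 over alternatives) in siBcat against siCTL, 3311 (2337 to 4320) in GSK126 against siCTL and 5450 (4417 to 6634) in siBcat against GSK126. Same-numbered libraries did not deviate together (correlation -0.031 to 0.069 over 9 pairs, and -0.074 to 0.057 over 18 pairs with different numbers). With the replicate block, 4514 genes and 5 of the 8 were called in siBcat against siCTL, 3135 and 3 in GSK126 against siCTL, and 5267 and 5 in siBcat against GSK126; Pvrl2 in siBcat against GSK126 lost its call (adjusted p = 0.05278). Every share and ratio kept its direction under its alternatives. With 3 libraries per group, the precision of small changes is limited.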
